A study of Mus musculus with 12 samples.

Results

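The data describe genes that mark neutrophils, the short-lived phagocytes of the blood, across a mouse model of stroke. The genes are S100a8, S100a9, Retnlg, Ngp, Mmp8, Fpr1, Fpr2, Hdc, Trem1 and Clec4e. They are 10 of the 39756 genes in the deposited count table and were taken by gene symbol, each matching 1 row. RNA from brain hemispheres, the ischemic ones where an artery was occluded, was sequenced in 12 adult male C57BL/6J mice, 4 in each of 3 groups, and the comparisons ask how ischemia-reperfusion changed these transcripts and whether Laminaria japonica polysaccharide (LJP), a sulfated polysaccharide of brown kelp, altered that change. Sham mice had the operation without occlusion, while the middle cerebral artery of the Vehicle and LJP mice was blocked for a time and then reopened (tMCAO). By the study's methods Vehicle and Sham mice were given saline by mouth, while LJP mice were given the polysaccharide daily, before and after the occlusion. All 12 mice carried the same genotype and batch labels. The study tried several doses and took the middle one for later work, but neither the labels nor the sequencing methods state the dose or the time of collection of the sequenced mice. Nothing in the labels says whether mice of a group shared a litter or an operation day.

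Neutrophils are scarce in the resting brain. After an ischemic stroke they enter from the blood, stick to vessel walls, and release granule proteases, reactive oxygen and cytokines. They carry most of their granule proteins ready-made from the bone marrow, so messenger RNA for these proteins marks the age as well as the number of the cells, and the transcripts that stay high in circulating cells are those of calprotectin, surface receptors and late granule products. None of the 10 genes is restricted to neutrophils: monocytes also use several of them, and Hdc is made by mast cells and by histamine neurons.

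The start regions of 5 genes are shown: the calprotectin pair S100a8 and S100a9, the granule genes Ngp and Mmp8, and Hdc, which was the only marker with more than 10 reads in every Sham mouse. Each window runs from 250 bases before to 50 bases after the RefSeq start site, in assembly GRCm38.p6, and is read 5′ to 3′ on the gene's strand. Windows were found for all 10 genes. The RefSeq start site is the gene's 5′ end in the count table for 8 of them, whereas it lies 26 bases downstream of that end for Trem1 and 5347 bases downstream for Hdc, inside the Hdc gene span given below. S100a8 lies at chr3:90668821-90669120 and S100a9 at chr3:90695672-90695971 (minus strand), Ngp at chr9:110419558-110419857, Mmp8 at chr9:7558179-7558478 and Hdc at chr2:126618629-126618928 (minus strand). Capitals mark matches on either strand to TTGCNNAA, letters bound by C/EBP factors, or to GAGGAAGT, letters bound by PU.1, both families that direct granulocyte development.
S100a8: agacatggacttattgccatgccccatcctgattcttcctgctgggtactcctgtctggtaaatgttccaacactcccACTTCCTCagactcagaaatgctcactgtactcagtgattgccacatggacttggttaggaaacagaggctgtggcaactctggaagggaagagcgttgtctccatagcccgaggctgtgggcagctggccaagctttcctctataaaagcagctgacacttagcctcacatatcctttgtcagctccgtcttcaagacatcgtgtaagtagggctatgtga
S100a9: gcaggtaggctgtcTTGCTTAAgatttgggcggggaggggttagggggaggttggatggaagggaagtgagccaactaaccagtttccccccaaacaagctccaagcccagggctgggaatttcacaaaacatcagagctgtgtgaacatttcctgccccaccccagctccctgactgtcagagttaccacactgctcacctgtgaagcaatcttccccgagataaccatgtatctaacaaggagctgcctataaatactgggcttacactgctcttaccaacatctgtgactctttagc
Ngp: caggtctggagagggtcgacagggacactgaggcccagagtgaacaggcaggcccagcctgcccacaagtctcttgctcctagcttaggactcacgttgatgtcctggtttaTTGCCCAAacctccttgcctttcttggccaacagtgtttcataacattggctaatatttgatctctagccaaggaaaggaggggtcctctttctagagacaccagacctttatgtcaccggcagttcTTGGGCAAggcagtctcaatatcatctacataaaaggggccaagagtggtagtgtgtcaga
Mmp8: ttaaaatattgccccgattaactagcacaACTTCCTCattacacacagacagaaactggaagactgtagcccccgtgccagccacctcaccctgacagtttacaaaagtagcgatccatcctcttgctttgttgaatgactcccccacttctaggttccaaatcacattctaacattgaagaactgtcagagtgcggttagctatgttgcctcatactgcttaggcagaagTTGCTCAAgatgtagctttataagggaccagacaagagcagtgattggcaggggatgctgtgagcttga
Hdc: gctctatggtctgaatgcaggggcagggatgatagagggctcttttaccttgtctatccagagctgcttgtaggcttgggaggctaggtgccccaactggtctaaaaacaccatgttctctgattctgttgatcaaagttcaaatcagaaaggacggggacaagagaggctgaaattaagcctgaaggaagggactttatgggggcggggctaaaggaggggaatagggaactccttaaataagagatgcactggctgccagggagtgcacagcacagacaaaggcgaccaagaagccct
TTGCNNAA was present in 5 of the 10 windows, those of S100a9, Retnlg, Ngp (on both strands, at separate places), Mmp8 and Clec4e, and in 10.8% of 32851 mouse windows of the same length. GAGGAAGT was present in 2 of the 10, S100a8 and Mmp8, and in 3.2% of all windows. In the Mmp8 window the TTGCNNAA match began 19 bases before the start site and the GAGGAAGT match, on the opposite strand, 221 bases before it, so they did not overlap. The Hdc, Fpr1, Fpr2 and Trem1 windows held neither. A match of letters is a description and no proof of binding.

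Total counts ranged from 17960353 to 22216315 per mouse. A count of 0 allows up to 3 counts, which is 0.129 to 0.173 CPM (counts scaled to the TMM-normalized library size), and the intervals of folds given below cover counting error only. The tissue label held, since neuron, astrocyte and oligodendrocyte marker lists were at 3319 to 5938, 3338 to 5271 and 4088 to 5732 summed CPM. Vehicle mice 1 and 2 stood apart from Vehicle mice 3 and 4, and values without them are given where they matter. An airway marker list was at 10.2 to 14.8 summed CPM in the Sham and Vehicle mice and at 0.818 to 2.88 in the LJP mice. Its leading gene Scgb1a1, a secretory protein of the airways, had 93 to 113 counts in the Sham, 79 to 123 in the Vehicle and 0 in all 4 LJP mice. Scgb3a1 of the same list did not follow, with 1 to 3 counts in the Sham, 5 to 29 in the Vehicle and 8 to 27 in the LJP mice. The part of the airway difference in the results was not tested.

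Apart from Hdc, the markers had at most 5 reads in any Sham mouse and at most 11 in any LJP mouse, while in the Vehicle brains they ranged from 0 to 1368 reads. The 10 genes together took 34 to 50 reads in a Sham mouse and 38 to 66 in an LJP mouse, against 3850, 1110, 61 and 154 in Vehicle mice 1 to 4. Of the 40 values in a group, 18 were 0 in the Sham, 1 in the Vehicle and 12 in the LJP mice, and 4, 25 and 6 reached 10 reads. All values of 10 reads or more in the Sham mice, and 4 of the 6 in the LJP mice, were of Hdc. In whole tissue, fewer neutrophils and less of each transcript per neutrophil cannot be told apart.

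**Figure D1:**
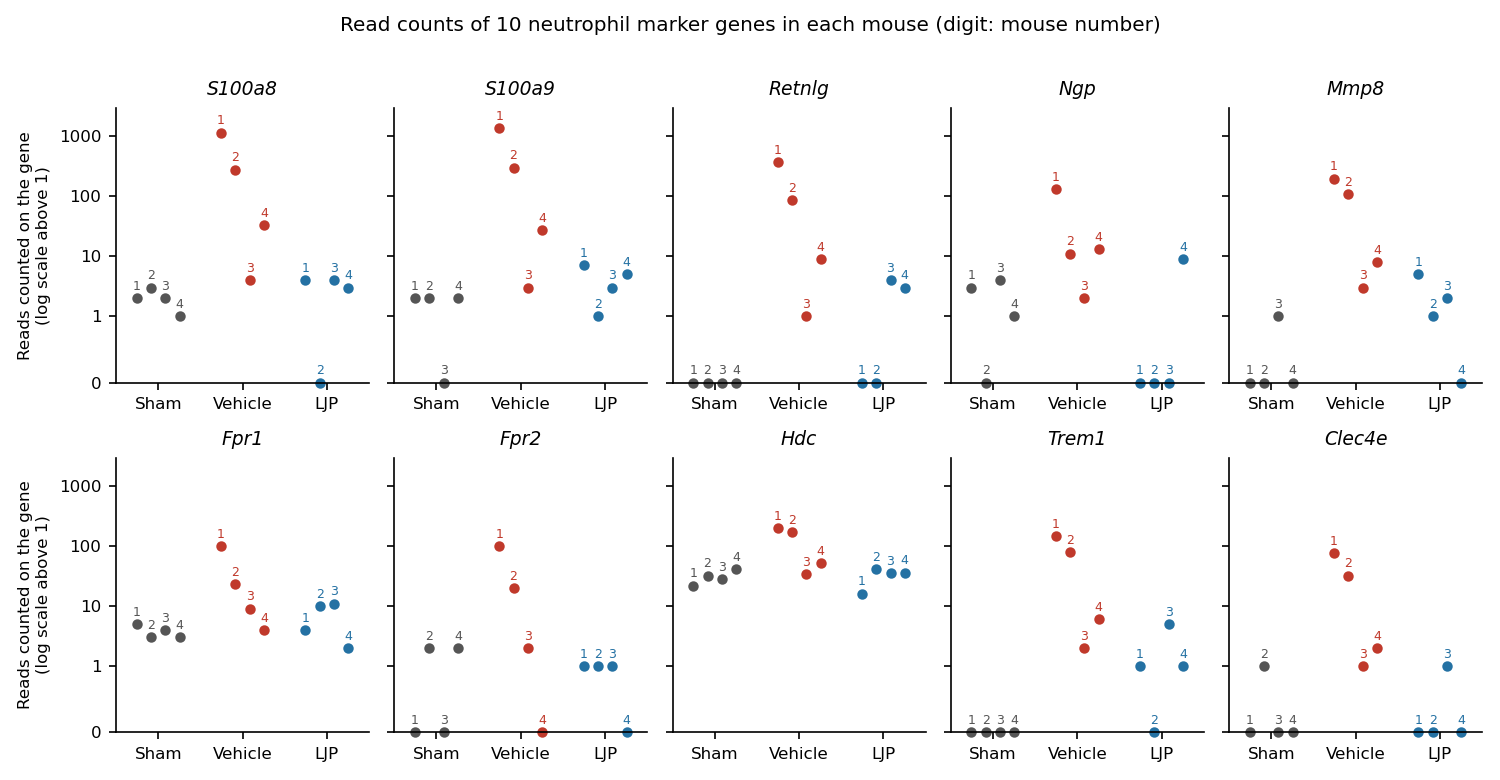
Reads counted on each of the 10 neutrophil marker genes in each mouse, on a scale that is linear from 0 to 1 and logarithmic above. Each point is 1 mouse and the digit is its number. Vehicle mice 1 and 2 lie above the other mice of all groups for 9 of the 10 genes, Ngp being the exception with Vehicle mouse 4 second.

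Differences between groups were tested with edgeR's quasi-likelihood test on the raw counts of all 12 mice, with Benjamini-Hochberg adjustment over all genes tested and a call at an adjusted p below 0.05. The low-count filter kept 17558 genes and removed 9 of the 10 markers, leaving Hdc. The test was therefore also fitted to all 30210 genes with a count in any mouse, and the values of the 10 markers below come from that fit, itself an alternative to the filtered one, unless the filtered fit is named. Two-sided exact permutation tests of log2 of CPM plus 0.5 in 4 mice against 4 served as a check per gene, and the smallest p they can give is 0.0286. Log2 fold changes are given with a standard error derived from the test, the absolute fold change over the square root of its F statistic. Nothing in the labels says that the mice of a group were raised or operated on separately, so p-values measure the spread between these mice.

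S100a8 and S100a9 encode the subunits of calprotectin, a calcium- and zinc-binding complex that fills the neutrophil cytosol and signals through Tlr4 when released. S100a8 (Entrez gene 20201, chr3:90669071-90670034 in GRCm38, plus strand) had 2, 3, 2 and 1 reads in Sham mice 1 to 4, 1159, 278, 4 and 33 in Vehicle mice 1 to 4 and 4, 0, 4 and 3 in LJP mice 1 to 4. Its partner S100a9 (Entrez gene 20202, chr3:90692630-90695721, minus strand) had 2, 2, 0 and 2 reads in Sham mice 1 to 4, 1368, 302, 3 and 27 in Vehicle mice 1 to 4 and 7, 1, 3 and 5 in LJP mice 1 to 4. Both genes were above every Sham mouse in every Vehicle mouse, although in Vehicle mouse 3 by a read or so, and Vehicle mouse 3 lay within the LJP range.

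S100a8 rose in the Vehicle group. Its mean level was 0.110 ± 0.0457 CPM in Sham, 16.6 ± 24.5 in Vehicle and 0.142 ± 0.0967 in LJP (SD, n = 4 each). Summed over the mice it was 164-fold higher in Vehicle than in Sham (95% counting interval 82.8 to 379.8), 47.7-fold without Vehicle mouse 1 and 9.12-fold without Vehicle mice 1 and 2. The log2 fold change was 7.18 ± 1.31 (edgeR adjusted p = 0.000998, and 1.52e-06 to 0.0131 over all alternatives run), and the exact permutation p was 0.0286.

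S100a9 gave the same picture with slightly larger folds. It was 252-fold higher in Vehicle than in Sham (95% counting interval 115 to 687), 67.1-fold without Vehicle mouse 1 and 9.86-fold without Vehicle mice 1 and 2. The log2 fold change was 7.78 ± 1.44 (edgeR adjusted p = 0.00112, and 8.36e-07 to 0.0138 over the alternatives). Reads of S100a9 per read of S100a8 were 1.18 in Vehicle mouse 1 (95% interval 1.09 to 1.28), 1.09 in mouse 2 (0.92 to 1.28) and 0.818 in mouse 4 (0.473 to 1.4), and these 3 intervals overlap although the level of the pair differed widely between the mice.

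LJP brains held less of both calprotectin transcripts than Vehicle brains. S100a8 was 127-fold lower (95% counting interval 70.6 to 254) and S100a9 100.4-fold lower (61.6 to 176), with log2 fold changes of -6.82 ± 1.26 and -6.50 ± 1.27. Both fell in the fit of all genes (edgeR adjusted p = 0.041 each), and over the alternatives the adjusted p ran from 0.000262 to 0.193 for S100a8 and from 0.000425 to 0.245 for S100a9. Each was called lower in 10 of the 28 fits that could test it. Without Vehicle mouse 1 the folds were 36.9 and 26.8 and the adjusted p was 0.083 for both. The exact permutation p was 0.0571 for S100a8 and 0.114 for S100a9, with Vehicle mouse 3 within the LJP range. Between LJP and Sham S100a8 differed 1.29-fold (0.474 to 3.7) and S100a9 2.51-fold (0.932 to 7.82), both with an interval that includes 1.

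The granule and secreted products were Ngp, Mmp8 and Retnlg. Ngp encodes a protein of the secondary granules, Mmp8 the neutrophil collagenase, and Retnlg a resistin-like protein that bone marrow granulocytes secrete. Retnlg (Entrez gene 245195, chr16:48872608-48874498, plus strand) was at 0 in all 4 Sham mice, had 374, 87, 1 and 9 reads in Vehicle mice 1 to 4 and 0, 0, 4 and 3 in LJP mice 1 to 4. Mmp8 (Entrez gene 17394, chr9:7558429-7568486, plus strand) had 0, 0, 1 and 0 reads in Sham mice 1 to 4, 197, 109, 3 and 8 in Vehicle mice 1 to 4 and 5, 1, 2 and 0 in LJP mice 1 to 4. Ngp (Entrez gene 18054, chr9:110419808-110423012, plus strand) had 3, 0, 4 and 1 reads in Sham mice 1 to 4, 132, 11, 2 and 13 in Vehicle mice 1 to 4 and 0, 0, 0 and 9 in LJP mice 1 to 4. Retnlg and Mmp8 were above every Sham mouse in every Vehicle mouse, whereas for Ngp Vehicle mouse 3 lay below 2 of the Sham mice.

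All of these rose in the Vehicle group. Retnlg was at least 139-fold higher than in Sham, with 3 counts over the 4 Sham mice as the floor, and at least 39.2-fold without Vehicle mouse 1 (edgeR adjusted p = 0.00429, and 0.000188 to 0.0233 over the alternatives). Mmp8, with a single Sham read, was 282-fold higher (95% counting interval 50.2 to 11157), 145-fold without Vehicle mouse 1 and 21.7-fold without Vehicle mice 1 and 2, with a log2 fold change of 7.49 ± 1.37 (adjusted p = 0.00103, and 3.18e-05 to 0.0343). Ngp was 17.5-fold higher (8.69 to 41.3) and 3.94-fold without Vehicle mouse 1, with a log2 fold change of 4.00 ± 1.21 (adjusted p = 0.0254, and 0.0045 to 0.319). Ngp was called in 12 of the 19 fits that could test it. Its call was lost without Vehicle mouse 1 (adjusted p = 0.295), without Vehicle mice 1 and 2 (0.319), without Sham mouse 1, 2 or 4 (0.0592, 0.0744 and 0.074), with a block for the replicate number (0.0533) and in DESeq2 (0.0667).

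Between LJP and Vehicle, Mmp8 fell and the other granule genes missed the threshold. Mmp8 was 37.4-fold lower in LJP (95% counting interval 18.8 to 87.5), its log2 fold change being -5.05 ± 1.05 (edgeR adjusted p = 0.041, and 0.000813 to 0.702 over the alternatives), and its call was lost without Vehicle mouse 1 (0.087), where the fold was 19.3. Mmp8 was called lower in 8 of the 19 fits that could test it. Retnlg was 63.6-fold lower (30.6 to 159), 17.9-fold without Vehicle mouse 1 and 3.00-fold without Vehicle mice 1 and 2, with a log2 fold change of -5.77 ± 1.39 (adjusted p = 0.0517, and 0.0023 to 0.727 over the alternatives). Ngp was 16.6-fold lower (8.52 to 36.9) and 3.73-fold without Vehicle mouse 1 (1.69 to 9.04), with a log2 fold change of -3.88 ± 1.19 (adjusted p = 0.0876, and 0.0136 to 0.625). The 9 Ngp reads of the LJP group were all in LJP mouse 4.

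The surface receptors among the markers were Fpr1, Fpr2, Trem1 and Clec4e. Fpr1 and Fpr2 bind formyl peptides shed by bacteria and by damaged mitochondria, Trem1 amplifies Toll-like receptor responses through the adaptor Tyrobp, and Clec4e (Mincle) recognises a ligand of dead cells and signals through Fcer1g, Syk and Card9. Fpr1 (Entrez gene 14293, chr17:17876471-17883939, minus strand) had 5, 3, 4 and 3 reads in Sham mice 1 to 4, 99, 23, 9 and 4 in Vehicle mice 1 to 4 and 4, 10, 11 and 2 in LJP mice 1 to 4. Its neighbour Fpr2 (Entrez gene 14289, chr17:17887824-17893952, plus strand) had 0, 2, 0 and 2 reads in Sham mice 1 to 4, 100, 20, 2 and 0 in Vehicle mice 1 to 4 and 1, 1, 1 and 0 in LJP mice 1 to 4. For both formyl peptide receptors Vehicle mouse 4 lay within the Sham range and Vehicle mouse 3 within or just above it.

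Trem1 (Entrez gene 58217, chr17:48232713-48246927, plus strand) was at 0 in all 4 Sham mice, had 145, 79, 2 and 6 reads in Vehicle mice 1 to 4 and 1, 0, 5 and 1 in LJP mice 1 to 4. Clec4e (Entrez gene 56619, chr6:123281789-123289871, minus strand) had 0, 1, 0 and 0 reads in Sham mice 1 to 4, 77, 32, 1 and 2 in Vehicle mice 1 to 4 and 0, 0, 1 and 0 in LJP mice 1 to 4. Trem1 was above every Sham mouse in every Vehicle mouse, while Clec4e overlapped by its single Sham read. Mmp8 and Trem1 have genes on the opposite strand inside them, which had at most 3 and 2 reads in a mouse, and the strand setting of the counting was not given in the sources used here.

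The receptors also rose in the Vehicle group, by unequal amounts. Trem1 was at least 68.7-fold higher than in Sham on the same floor and at least 35.2-fold without Vehicle mouse 1 (edgeR adjusted p = 0.0032, and 0.000126 to 0.0301 over the alternatives). Clec4e was 99.5-fold higher (95% counting interval 17.5 to 3964) and 42.4-fold without Vehicle mouse 1, with a log2 fold change of 6.00 ± 1.34 (adjusted p = 0.00403, and 0.000316 to 0.504). Both kept the call without Vehicle mouse 1, with adjusted p of 0.00776 and 0.0184. Fpr2 was 27.1-fold higher (10.3 to 101) and 6.67-fold without Vehicle mouse 1 (2.26 to 26.6), with a log2 fold change of 4.54 ± 1.25 (adjusted p = 0.0153, and 0.00201 to 1). Fpr1 was 7.99-fold higher (4.68 to 14.7) and 2.91-fold without Vehicle mouse 1, with a log2 fold change of 2.90 ± 0.80 (adjusted p = 0.0159, and 0.00294 to 0.61). The calls of Fpr1 and Fpr2 were lost without Vehicle mouse 1 (adjusted p = 0.142 and 0.171), and without Vehicle mice 1 and 2 their summed levels were 1.71-fold (0.748 to 3.85) above and 1.01-fold (0.145 to 11.2) below Sham.

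Clec4e fell from Vehicle to LJP, at a log2 difference of -6.05 ± 1.33 (edgeR adjusted p = 0.0425, and 0.00176 to 0.727 over the alternatives), and its call was lost without Vehicle mouse 1 (0.101). Clec4e was called lower in 7 of the 19 fits that could test it. The single Clec4e read in the LJP group makes the 106-fold difference uncertain (95% counting interval 18.6 to 4217), and it was 45.1-fold without Vehicle mouse 1. Trem1 was 31.3-fold lower in LJP (15 to 78.8), Fpr2 38.4-fold (12.8 to 189) and Fpr1 4.72-fold (3.11 to 7.43), at adjusted p of 0.0525, 0.0567 and 0.125, none of which passed. Without Vehicle mouse 1 these 3 folds were 16.0, 9.46 and 1.72. Over the alternatives the adjusted p ran from 0.00289 to 0.792 for Trem1, from 0.00709 to 0.981 for Fpr2 and from 0.0326 to 1 for Fpr1. Without Vehicle mice 1 and 2, Fpr1 was 1.01-fold lower in LJP (0.478 to 2.03), that is, level with Vehicle within counting error.

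Hdc, which encodes histidine decarboxylase, the enzyme that makes histamine, behaved differently in that it had a level to start from. Hdc (Entrez gene 15186, chr2:126593659-126624025, minus strand) had 22, 32, 28 and 41 reads in Sham mice 1 to 4, 199, 169, 34 and 52 in Vehicle mice 1 to 4 and 16, 41, 35 and 36 in LJP mice 1 to 4. Its mean level was 1.67 ± 0.361 CPM in Sham, 5.23 ± 3.47 in Vehicle and 1.68 ± 0.643 in LJP (SD, n = 4 each). In the filtered fit Hdc rose from Sham to Vehicle, its log2 fold change being 1.65 ± 0.47 (edgeR adjusted p = 0.0157, and 0.000895 to 0.466 over the alternatives), a 3.28-fold difference of the sums (95% counting interval 2.68 to 4.03). Leaving out Vehicle mouse 1 gave 1.25 ± 0.46 and an adjusted p of 0.0524. From Vehicle to LJP Hdc had a log2 fold change of -1.65 ± 0.47 that did not pass (adjusted p = 0.0709, and 0.00412 to 0.71 over the alternatives), and between LJP and Sham the sums differed 1.02-fold (0.792 to 1.32).

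A mast cell list (Cpa3, Cma1, Tpsb2, Tpsab1, Mcpt4, Ms4a2 and Fcer1a) summed to 0 to 0.110 CPM in Sham, 0.0539 to 0.323 in Vehicle and 0 to 0.136 in LJP, with Fcer1a at 0 in all 12 mice and no gene of the list above 4 reads in any mouse. Its part in the Hdc difference was not tested. Of the histamine genes listed as partners, the receptor Hrh3 and the histamine-degrading enzyme Hnmt fell from Sham to Vehicle, by 0.41 and 0.47 on the log2 scale (edgeR adjusted p = 0.0111 and 0.0306), whereas Hrh1 (0.109) and Hrh2 (0.31) did not pass.

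Across the markers, all 10 were called higher in Vehicle than in Sham in the fit of all 30210 genes, where 13.1% of genes were called higher. The adjusted p lay between 0.000998 and 0.0254. In the filtered fit the 1 marker tested, Hdc, was called higher, where 22.7% of the 17558 genes were. The median log2 fold change of the 10 was 6.05 with Retnlg and Trem1 at their lower bounds, against 0.01 over all genes tested. The exact permutation p was 0.0286 for the 5 of the 10 whose groups did not overlap (S100a8, S100a9, Retnlg, Mmp8 and Trem1), where 12.9% of all genes had every Vehicle mouse above every Sham mouse. Without Vehicle mouse 1 the count was 6 of 10, against 11.9% of all genes, and without Vehicle mice 1 and 2 it was 5 of 10, the same 5 that did not overlap, against 9.56% of all genes. DESeq2 called 9 of the 10 higher, all but Ngp, where it called 18.9% of all genes with an adjusted p higher.

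For LJP against Vehicle, 4 of the 10 markers (S100a8, S100a9, Mmp8 and Clec4e) were called lower, where 1.8% of all genes were, and none was called higher. All 10 had a lower fitted level in LJP and an unadjusted p below 0.05, with adjusted p from 0.041 to 0.125 and a median log2 fold change of -5.00 against 0 over all genes. In the filtered fit Hdc was not called, where 0.0228% of genes were called lower. No marker had every LJP mouse below every Vehicle mouse, where 3.85% of all genes did. The count of markers called lower was 0 of 10 without Vehicle mouse 1, where 0.01% of all genes tested were called lower. It was 8 without Vehicle mouse 2 (1.34% of all genes), 10 without Vehicle mouse 3 (7.52%) and 10 without Vehicle mouse 4 (5.32%). It was 3 without LJP mouse 3 (2.06%), and 0 without any single Sham mouse or any other single LJP mouse, where 0.00998% to 0.0133% of all genes were called lower. DESeq2 called 8 of the 10 lower, all but Fpr1 (adjusted p = 0.0608) and Ngp (0.119), where it called 9.15% of all genes with an adjusted p lower.

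For LJP against Sham, none of the 10 markers was called in either fit, where 2.76% of all genes and 4.75% of the filtered genes were, and none had an unadjusted p below 0.05. The adjusted p was 0.611 or higher, and DESeq2, which called 5.67% of genes higher and 1.98% lower, also called none. No marker had LJP mice entirely above Sham, where 7.94% of all genes did, or entirely below, where 7.36% did. Retnlg and Trem1 had 7 reads each over the LJP mice and 0 over the Sham mice, at least a 2.19-fold difference, and Mmp8 had 8 against 1 (7.52-fold, 95% counting interval 1.01 to 334). Counts this low leave differences of several fold undetectable.

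**Figure D2:**
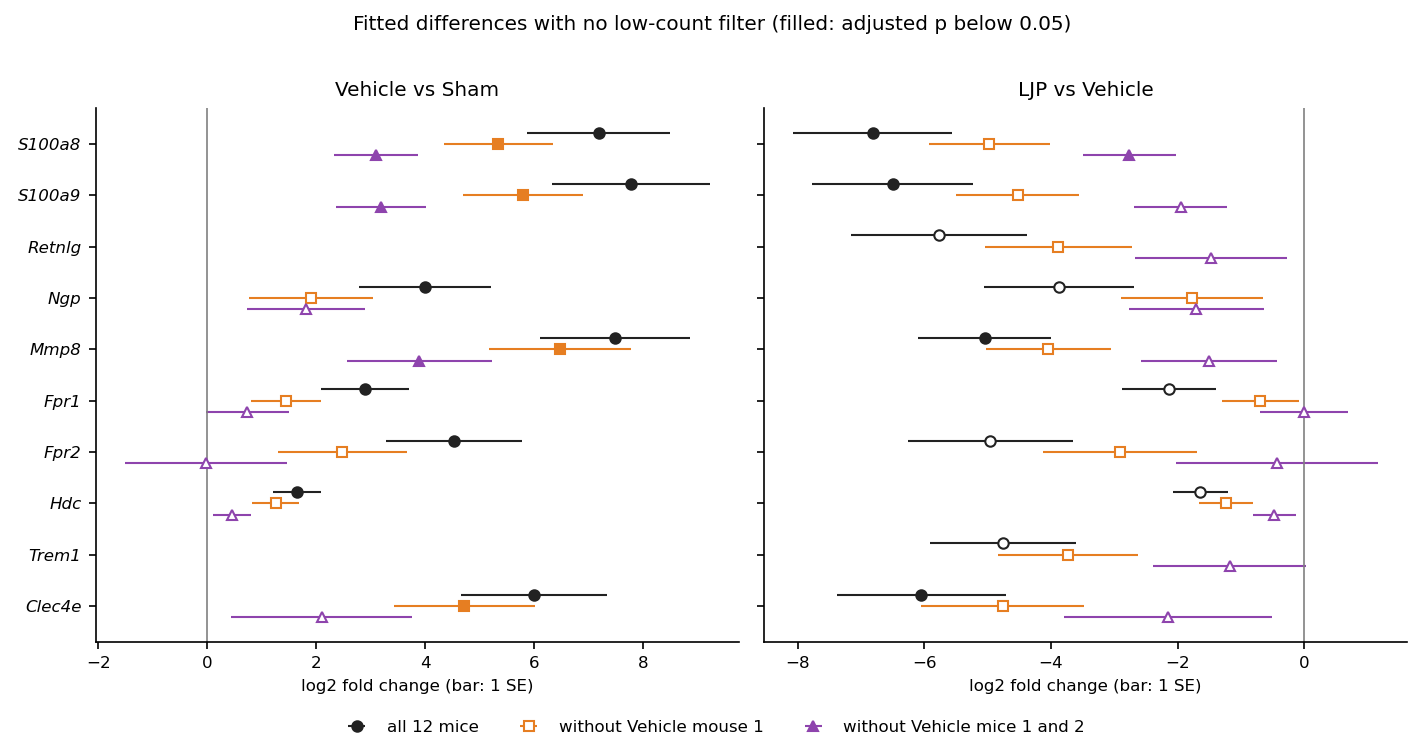
Fitted log2 fold changes of the 10 markers, with 1 SE, in Vehicle against Sham (left) and LJP against Vehicle (right), for all 12 mice and without Vehicle mouse 1 or mice 1 and 2. Filled symbols passed an adjusted p below 0.05. Retnlg and Trem1 are left out on the left because all Sham mice are at 0, and the estimates shrink toward 0 as the high Vehicle mice are removed.

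Vehicle mouse 1 had the highest level of all 10 markers in its group and mouse 2 the next highest of 9. Of the 10 markers, 7 followed the order 1, 2, 4, 3, and the coefficient of variation over the 4 Vehicle mice ran from 66.2% for Hdc to 156% for Fpr2. Vehicle mouse 1 supplied 43.2% of the summed Vehicle CPM of Hdc and 62.9% to 82.4% of that of the other markers, and mice 1 and 2 together supplied 77.9% to 98%. The markers also differed in how far mouse 1 exceeded mouse 2. The ratio was 1.24 for Hdc (95% counting interval 1.01 to 1.54), 1.91 for Mmp8 (1.5 to 2.43) and 1.94 for Trem1 (1.46 to 2.58). It was 4.4 for S100a8 (3.86 to 5.04), 4.78 for S100a9 (4.22 to 5.44) and 12.7 for Ngp (6.86 to 26). The intervals of Mmp8 and Trem1 did not reach those of the calprotectin genes, so the markers did not scale by a single factor between these mice.

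**Figure D3:**
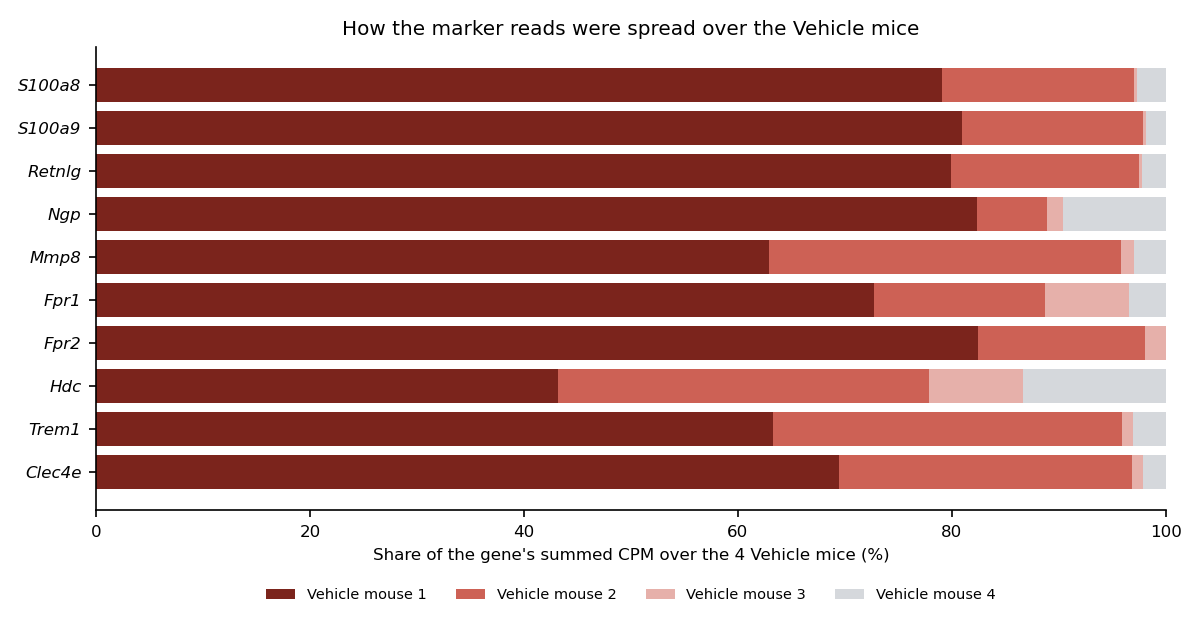
Share of each marker's summed CPM over the Vehicle group that came from each of the 4 mice. Mouse 1 holds 43.2% of Hdc and 82.4% of Fpr2, and the bars of mice 3 and 4 together are widest for Hdc.

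Per kilobase of counted gene length, calprotectin led the markers in the mice with the most reads. In Vehicle mouse 1, S100a8 was at 134 and S100a9 at 118 CPM per kb, followed by Retnlg at 27.9 and Ngp at 5.16. The other 6 lay between 0.963 (Clec4e) and 3.64 (Mmp8). In Vehicle mouse 2 the order began the same way, with S100a8 at 30.5, S100a9 at 24.8 and Retnlg at 6.15 CPM per kb, but Hdc came next at 2.74 and Ngp, at 0.407, was above Clec4e (0.379) alone. In the Sham mice Hdc led, at 0.479 to 0.802 CPM per kb, and no other marker exceeded 0.417.

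Genes of neutrophils outside the 10 were read from lists of other granule proteins, surface and maturation genes, attractants and partners of the markers. Of the other granule genes, 3 of 10 tested were called higher in Vehicle than in Sham (Lcn2, Mmp9 and Slpi) and 3 lower in LJP than in Vehicle, comparisons that share the Vehicle mice, against 13.1% and 1.8% of all genes. These counts were 3 and 0 of 10 without Vehicle mouse 1, against 11.9% and 0.01% of all genes. Lcn2, an iron-sequestering protein that astrocytes also make, had 5 to 13 reads in Sham, 3665, 2479, 306 and 309 in Vehicle and 110 to 250 in LJP. It was the one gene of the list called above Sham in LJP, where 2.42% of all genes were (4.35 on the log2 scale, edgeR adjusted p = 0.0046). Mmp9, a gelatinase, had 17 to 28 reads in Sham, 946, 836, 26 and 107 in Vehicle and 23 to 46 in LJP. Slpi, a protease inhibitor, had 1 Sham read in all, 139, 34, 1 and 6 reads in Vehicle and 3 LJP reads in all. Pglyrp1, a bactericidal protein, had a log2 fold change of 0.65 that did not pass in the filtered fit (adjusted p = 0.128). Mpo, Elane, Ctsg and Prtn3 encode proteins of the primary granules, which neutrophils transcribe early in the bone marrow. Mpo had 0 to 2 reads in Sham, 9, 4, 2 and 0 in Vehicle and 1 or 2 in LJP, and Elane and Ctsg were at 0 in all 12 mice. Prtn3 had 12 to 20 reads in Sham, 43, 20, 15 and 19 in Vehicle and 9 to 14 in LJP, and was called neither in Vehicle against Sham nor in LJP against Vehicle in the filtered fit (edgeR adjusted p = 0.289 and 0.0884). The median log2 fold change of the list was 1.68 in Vehicle against Sham, without the 1 gene under the floor in both groups.

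Of the other surface and maturation genes, 11 of 15 were called higher in Vehicle than in Sham and 6 of 15 lower in LJP than in Vehicle, against 13.1% and 1.8% of all genes. Cxcr2, the receptor for CXC chemokines that draws neutrophils out of the blood, was at 0 in all 4 Sham mice, had 408, 146, 1 and 9 reads in Vehicle mice 1 to 4 and 0, 2, 2 and 0 in LJP mice 1 to 4. Ly6g, whose protein is the usual antigen of mouse neutrophils, had at most 4 reads in any mouse. Il1r2, a decoy receptor for interleukin 1, had 2 to 7 reads in Sham, 644, 462, 2 and 43 in Vehicle and 1 to 6 in LJP. Clec4d, a lectin that pairs with Clec4e, had 0 or 1 reads in Sham, 242, 208, 6 and 28 in Vehicle and 1 to 8 in LJP. Most Vehicle reads of Cxcr2, Il1r2 and Clec4d were in mice 1 and 2, as for the markers.

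Csf3r and C5ar1, receptors that microglia and macrophages also carry, showed a different spread. Csf3r had 83 to 124 reads in Sham, 1063, 890, 324 and 455 in Vehicle and 186 to 474 in LJP, and C5ar1 10 to 15 in Sham, 822, 848, 287 and 240 in Vehicle and 112 to 281 in LJP. Both rose in Vehicle against Sham in the filtered fit (edgeR adjusted p = 0.000338 and 5.24e-05) and were also called higher in LJP than in Sham (0.032 and 0.00116). Asprv1, a protease that also rose in the filtered fit (log2 fold change 2.38, 0.0291), had 351 reads in Vehicle mouse 1 and 17 to 78 in the other Vehicle mice. Without Vehicle mouse 1, 9 of the 15 genes were called in Vehicle against Sham (11.9% of all genes were called higher) and none in LJP against Vehicle (0.01% lower).

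Of the attractants and growth factors, 8 of 11 were called higher in Vehicle than in Sham (13.1% of all genes) and 8 lower in LJP than in Vehicle (1.8%). Csf3, the granulocyte colony-stimulating factor that drives neutrophil production and release, had 0, 2, 1 and 0 reads in Sham, 53, 111, 74 and 47 in Vehicle and 0, 1, 1 and 0 in LJP. Every Vehicle mouse was above every Sham and every LJP mouse, and it passed both comparisons in the filtered fit, with log2 fold changes of 6.18 ± 0.60 and -6.74 ± 0.63 (edgeR adjusted p = 8.24e-05 and 0.000929). Unlike the markers, Csf3 was not highest in Vehicle mouse 1. Of the same list, Cxcl1, Cxcl2, Cxcl3, Cxcl5, Ppbp and Il1b were highest in that mouse, and Lta4h was highest in mouse 2. Alox5 and Alox5ap, which start leukotriene synthesis, rose in Vehicle (filtered fit, 0.000504 and 0.00035) and had 332, 236, 81 and 49 and 1019, 998, 239 and 262 reads in the Vehicle mice. Without Vehicle mouse 1, 8 of 10 were called in Vehicle against Sham (11.9% of all genes) and 1 in LJP against Vehicle (0.01%).

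Of the 19 partners of the markers, 13 were called higher and 2 lower in Vehicle than in Sham (13.1% and 8.15% of all genes), and 6 were called lower in LJP than in Vehicle (1.8%). These counts were 13, 1 and 0 without Vehicle mouse 1, against 11.9%, 6.65% and 0.01% of all genes. Tyrobp, the adaptor of Trem1, Cebpa and Spi1, which encodes PU.1, rose in the filtered fit by log2 fold changes of 2.81 ± 0.29, 1.97 ± 0.19 and 2.89 ± 0.32 (edgeR adjusted p = 9.61e-05, 6.92e-05 and 0.000124). In LJP they were also called above Sham (adjusted p = 0.00116, 0.0016 and 0.00583), among 8 of the 19 in the fit of all genes (2.42% of all genes), and microglia express all 3. Anxa1, a ligand of Fpr2, had 8 to 25 reads in Sham, 278, 1076, 61 and 122 in Vehicle and 24 to 45 in LJP, and Timp1, an inhibitor of the collagenases, 14 to 23, 1649, 2390, 153 and 335, and 68 to 191. Both were called lower in LJP than in Vehicle in the fit of all genes (edgeR adjusted p = 0.041 each), though not in the filtered fit (0.0678 each) or without Vehicle mouse 1, and were highest in Vehicle mouse 2, where the markers were highest in mouse 1.

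Lists of other cells are set beside these results. The erythroid list, led by the globin gene Hbb-bs, was at 3.89 to 5.99 summed CPM in Sham, 89.2, 51.2, 9.8 and 14.4 in Vehicle mice 1 to 4 and 5.42 to 8.92 in LJP, the same order of the Vehicle mice as most markers, and all 5 of its genes were called higher in Vehicle than in Sham (13.1% of all genes). The monocyte list was at 14.1 to 16.5 in Sham, 54.6, 52.2, 22.4 and 27.0 in Vehicle and 20 to 26.7 in LJP. Most of this sum was Vcan, at a mean of 15.1, 30.4 and 21.8 CPM in Sham, Vehicle and LJP. All 6 monocyte genes were called higher in Vehicle than in Sham (13.1% of all genes), with a median log2 fold change of 3.37. The border macrophage list was at 9.80 to 13.5 in Sham, 66.4, 170.0, 26.8 and 38.2 in the Vehicle mice, highest in mouse 2, and 14.7 to 28.9 in LJP. All 5 of its genes were called higher in Vehicle than in Sham (13.1% of all genes). Between LJP and Vehicle, 1 monocyte, 1 border macrophage and 3 erythroid genes were called lower (1.8% of all genes), and none without Vehicle mouse 1 (0.01%). The part of these lists in the marker differences, and that of blood left in the vessels, was not tested. The microglia list had the lowest level of the Vehicle group in mouse 1, at 292, 553, 635 and 668 in Vehicle mice 1 to 4 against 231 to 238 in Sham and 396 to 709 in LJP. The T and B cell list was at 19.6 to 25.8 in Sham and 4.64 to 6.57 in Vehicle, and this sum followed Cd4, which macrophages can also express. Cd4 had 367 to 464 reads in Sham and 43 to 104 in Vehicle and was the 1 gene of 9 called lower (8.15% of all genes). Cd79b, a subunit of the B cell receptor, had 0 to 7 reads in Sham and 12 to 21 in Vehicle and was the 1 called higher (13.1%). Of the 9, 7 had a fitted level above Sham, but 2 of the 9 had no more than the floor of 3 counts in both groups.

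**Figure D4:**
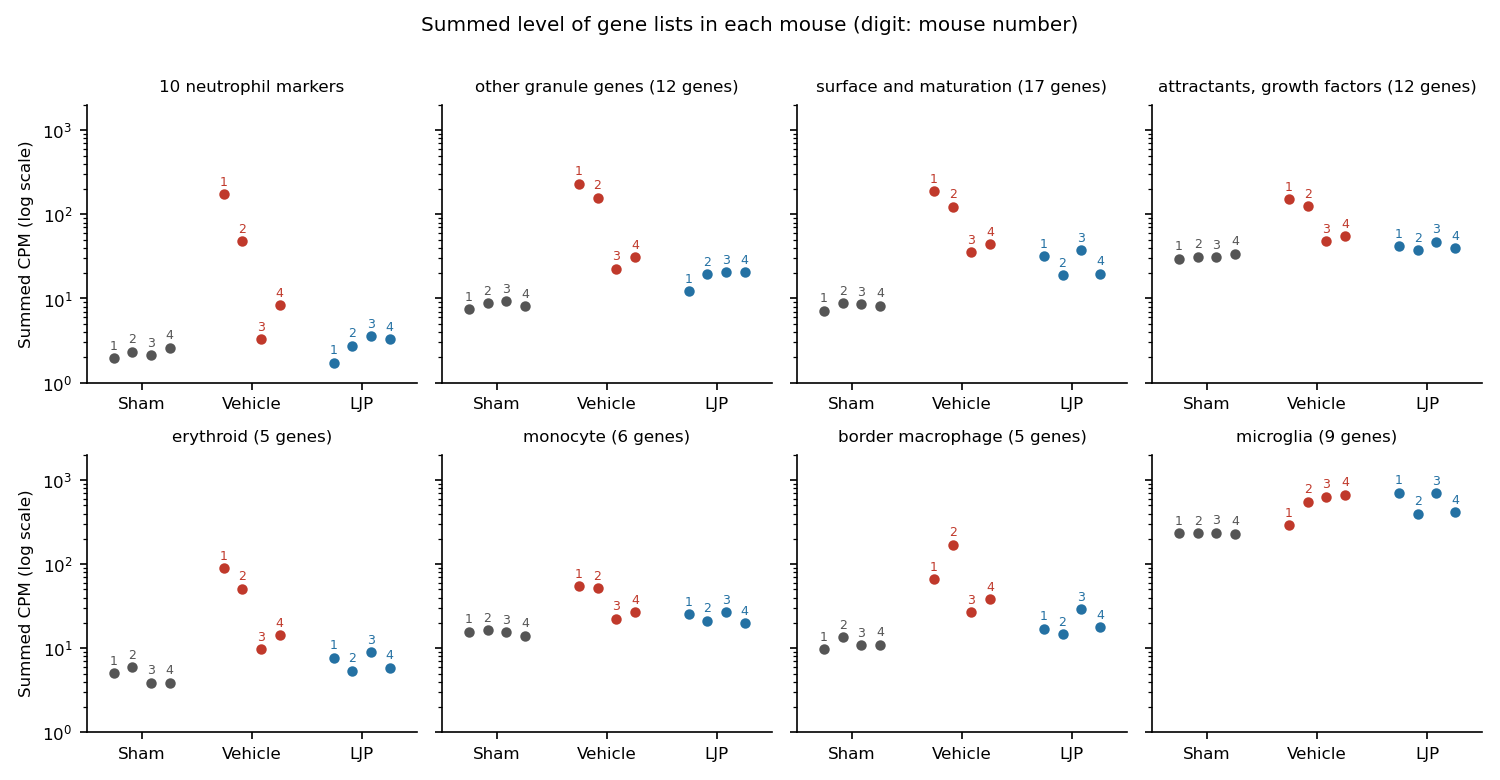
Summed CPM of 8 gene lists in each mouse, on a log axis, with 1 point per mouse and its number. The 10 markers, the other granule, surface, attractant, erythroid and monocyte lists share the order of Vehicle mice 1, 2, 4 and 3, while the microglia list is lowest in Vehicle mouse 1.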

How the data were processed

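Poly(A) RNA of brain hemispheres of 12 mice (4 Sham, 4 Vehicle, 4 LJP), ischemic in the Vehicle and LJP mice, was sequenced as paired-end reads. The authors deposited raw read counts per gene and mouse, without normalization; the submitters' processing notes name featureCounts and DESeq2, and the builds GRCm39 and mm10, while gene positions in the table match GRCm38. The aligner was not given in the sources used here. Groups and mouse numbers came from the sample labels.

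Counts were fitted in R 4.3.3 with edgeR 4.0.16 (TMM, glmQLFit, glmQLFTest) with a coefficient per group over all 12 mice, after filterByExpr, which kept 17558 of the 30210 genes with a count, and again without that filter. Adjusted p-values are Benjamini-Hochberg over all genes tested. Total counts were 17960353 to 22216315 per mouse, and CPM used TMM-scaled totals of 17340186 to 23273736. Exact permutation tests (scipy 1.17.1) enumerated all 70 divisions of 8 mice on log2 of CPM plus 0.5. Intervals of folds are exact binomial intervals of the 2 summed counts at 95%, and cover counting error only. The steps were tested on simulated counts. Mice of a group differed beyond sampling noise (chi-square per degree of freedom at least 2.48).

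Alternatives were DESeq2 1.42.0, RLE or library-size scaling, fits of the compared pair of groups alone, a block for the replicate number, the study's thresholds (absolute log2 fold change over 0.58 with unadjusted p below 0.01), a pseudocount of 2, and each mouse left out. The fits without the filter combined with another choice, and those without Vehicle mice 1 and 2, were added after seeing the data.

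Beside the 10 markers, the genes named are the 3 of each neutrophil and partner list with the smallest p in Vehicle against Sham and the 2 with the smallest p in LJP against Vehicle, in either edgeR fit, plus Ly6g, Cxcr2, Csf3r, Mpo and Scgb1a1. Elane, Ctsg, Prtn3, Hrh1, Hrh2, Hrh3, Hnmt, Hbb-bs, Cd4, Cd79b, Vcan, Scgb3a1, Cxcl1, Cxcl2, Cxcl3, Cxcl5, Ppbp, Il1b, Lta4h and the mast cell genes were named after their values were seen. The members and lists were chosen with earlier results of these data known. Promoter windows are RefSeq's.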

Additional observations from a re-analysis of the deposited data

Results flagged for a closer look

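In groups of 4 mice, a mouse was picked out where its gap to the nearest other mouse took up nearly the whole range of its group, on log2 of CPM plus 0.5. For continuous values chance would pick out about 1 group in 20, or 1.4 of the 28 groups tested, and 7 were picked out. Most of the 7 rest on counts of 0 or 1, where that rate does not hold, so 7 is not read against 1.4. A group with reads in 1 mouse alone has a gap of 1 by construction. For S100a9 in the Sham group, mouse 3 was lowest, with 0 reads against 2 in the others and a gap of 0.908 of the range. For Ngp in the LJP group, mouse 4 held all 9 reads (gap 1). For Mmp8 in the Sham group, mouse 3 held the single read (gap 1), as did mouse 2 for Clec4e in the Sham group (gap 1) and mouse 3 for Clec4e in the LJP group (gap 1). For Fpr2 in the LJP group, mouse 4 was lowest, with 0 reads against 1 in the others (gap 0.842). For Hdc in the LJP group, mouse 1 was lowest, with 16 reads against 35 to 41 in the others (gap 0.897). No mouse of the Vehicle group was picked out on this scale, while on CPM itself Vehicle mouse 1 was picked out for Ngp (gap 0.899) beside the same 7.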

How the results depend on the processing

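The count of markers called higher in Vehicle than in Sham was 1 with the filter, which tested 1, and 10 without it. It was 9 in DESeq2, which called 18.9% of genes higher. When single mice were left out it was 6 to 10 without the filter (10.4% to 15% of all genes) and 0 to 4 with it (18.2% to 25.3%), with the lowest value in each case without Vehicle mouse 1. The filter then tested 1 to 4 markers, and those other than Hdc had at most 5 reads in a Sham mouse and passed it through mice of the other groups, so their calls are no support. Without Vehicle mice 1 and 2 it was 5, and the log2 fold change of Fpr2 changed sign, from 4.54 to -0.0163. For LJP against Vehicle the count was 0 with the filter, 4 without it, 8 in DESeq2 (9.15% of genes lower) and 1 at the study's thresholds (5.89%). Leaving out single mice gave 0 to 4 with the filter (0.0167% to 13.1%) and 0 to 10 without it (0.00998% to 7.52%), only the 2 groups compared gave 0 without the filter (0.0068%), and leaving out Vehicle mice 1 and 2 gave 1 (0.795%). For LJP against Sham it was 0 in every fit, where 1.42% to 12.1% of genes were called higher and 0.133% to 11.8% lower. RLE and library-size scaling changed none of these counts.

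Mouse numbers did not pair the groups: deviations of same-numbered mice correlated at -0.32 to 0.11. With the replicate block and no filter, 9 markers were called higher in Vehicle than in Sham (11.3% of all genes), 1 (S100a9) lower in LJP than in Vehicle (0.0298%) and 0 between LJP and Sham (2.06% higher, 0.215% lower). With the block and the filter the markers called were 1, 0 and 0, and genes called were 6110 for Vehicle against Sham, 2 for LJP against Vehicle and 464 for LJP against Sham.

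Over all genes, Vehicle against Sham gave 7014 calls, 3807 at the study's thresholds and 5285 to 8200 with 1 mouse left out. LJP against Vehicle gave 4, 593 without the filter, 2298 in DESeq2, 1223 at the study's thresholds, 2 with only the 2 groups and 3 to 3857 with 1 mouse left out. LJP against Sham gave 834, 1458 in DESeq2, 4043 with only the 2 groups and 393 to 2357 with 1 mouse left out. Of 672 single-gene alternatives, 571 stayed on the same side of the threshold, some with an opposite sign where neither fit was called. Another 76 lost the call, 24 gained it and 1 changed direction with a call in 1 of the 2 fits. Why these counts moved was not tested. Apart from Hdc, the markers had at most 5 reads in a Sham mouse and 11 in an LJP mouse, which leaves small differences between those groups undetectable.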
